A study of Vitis vinifera with 8 samples.

Results

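The 36 genes described here are the most abundant transcripts of ripening grape berries for which the gene table used gave no symbol. They were chosen from 25771 listed genes by 1 rule: at least 1000 RPKM in each of the 4 libraries of berries taken after véraison. RPKM is reads scaled by gene length in kilobases and by a read total of the library. Véraison is the onset of ripening, when the berry softens, colours and gains sugar. A total of 46 genes passed that level, and 10 of them were left out because the reference table gives them a symbol. Of the 36, 24 matched an entry of the gene table of the Pinot Noir reference assembly (23 protein-coding genes and 1 long noncoding RNA), all under a placeholder beginning with LOC, and 12 matched none and are given by their number. Whether those 12 have a symbol elsewhere is not known, and their place among the 36 rests on the choice to keep genes without an entry. Only 2 carry a synonym: LOC100243643 is SWEET15, of a family of membrane transporters of sugars, and LOC100250566 is Trxh2, a thioredoxin h, a small protein that reduces disulfide bonds. The gene table gives no product names. Lists of words for storage and defence, cell wall, redox, stress, translation, carbon, chaperone and photosynthesis genes therefore matched 0 of the 36, which says nothing of their roles, and no role is given to the others.

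The libraries were single-end Illumina mRNA libraries from deseeded berries of fruiting L1 Pinot Meunier microvines, a dwarf grapevine raised from 1 cell layer of that cultivar. It carries a mutation that makes it insensitive to gibberellin, so it is a mutant background shared by every sample. There were 4 groups of 2 biological replicates: post-véraison berries at 38 °C, post-véraison berries at 16 °C, pre-véraison berries at 38 °C and pre-véraison berries at 16 °C. Post-véraison berries were 12 to 14 weeks and pre-véraison berries 5 to 6 weeks past flowering. The 38 °C berries were picked at 10 AM, 1 hour after the growth room was raised to that temperature, and the 16 °C berries at 9 AM, so heat and hour of day cannot be told apart.

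In the second growth phase of the grape berry, which begins at véraison, sugars, water and pigments accumulate in vacuoles, while chlorophyll and malic acid decline. The transcript pool of ripe flesh and skin is known for being dominated by a small number of genes, among them genes for thaumatin-like proteins and chitinases, which are related to defence proteins. In bulk tissue a lower level can come from fewer cells of a type or from less RNA per cell, and these cannot be told apart.

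The read totals by which RPKM was scaled, worked back from the smallest steps between RPKM values, were 6047199 to 11243341 per library. Reads recovered for the listed genes made up 99.54 to 99.72% of them. These totals are therefore close to the reads assigned to genes, and the full sequencing depth is not known. HSP101, a chaperone gene of the heat response, was at 45.7 to 65.2 RPKM in the heated and 4.74 to 6.45 RPKM in the unheated post-véraison libraries, and at 944 to 1075 RPKM against 6.34 to 7.12 RPKM before véraison, and the heat stress factor gene HsfA2 was likewise higher in every heated library. Of the tissue markers matched, UFGT and GST4, which act in anthocyanin synthesis and transport, were at 35.8 to 405 RPKM after véraison and at most 0.59 RPKM before it. CHLH, PSBP1 and PSBP2, nuclear genes whose proteins work in the chloroplast, were lower in every post-véraison library than in any pre-véraison library. For the same want of product names the seed marker words matched 0 genes, and removal of seeds was not checked.

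After véraison the 36 genes, 0.14% of the genes listed, held 27.2 to 30.9% of the summed RPKM of a library.
Their share was 29.0% and 27.2% in the heated and 30.9% and 27.8% in the unheated post-véraison libraries, against 9.55% and 10.3% in the heated and 7.74% and 13.4% in the unheated pre-véraison libraries. The high share after véraison follows from the rule and was not tested. Counted as reads, without dividing by gene length, the means were 24.5 ± 1.05% and 26.0 ± 1.78% in heated and unheated post-véraison berries and 7.56 ± 0.45% and 8.10 ± 2.91% in heated and unheated pre-véraison berries (SD, n = 2 each). The 10 genes with symbols that passed the same level added 12.5 to 13.6% of the RPKM of each post-véraison library and 1.17 to 1.49% of each pre-véraison library.

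A few of the 36 genes held most of their share. The genes 100245999 and 100263164 alone held 9.59% and 8.81% of the RPKM of the heated and 10.8% and 10.6% of the unheated post-véraison libraries, against 0.597% and 0.490% of the heated and 0.640% and 0.899% of the unheated pre-véraison libraries. The 9 highest genes held 21.5 ± 1.32% in heated and 22.1 ± 2.36% in unheated post-véraison berries, and the other 27 held 6.60 ± 0.09% and 7.24 ± 0.16% there (SD, n = 2). The 12 genes without an entry in the gene table held 18.2 ± 1.32% in heated and 18.9 ± 2.22% in unheated post-véraison berries, against 9.90 ± 0.09% and 10.5 ± 0.01% for the 24 with an entry (SD, n = 2). Most of the RPKM of the set therefore stands under numbers that the gene table used here does not name.

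**Figure D1:**
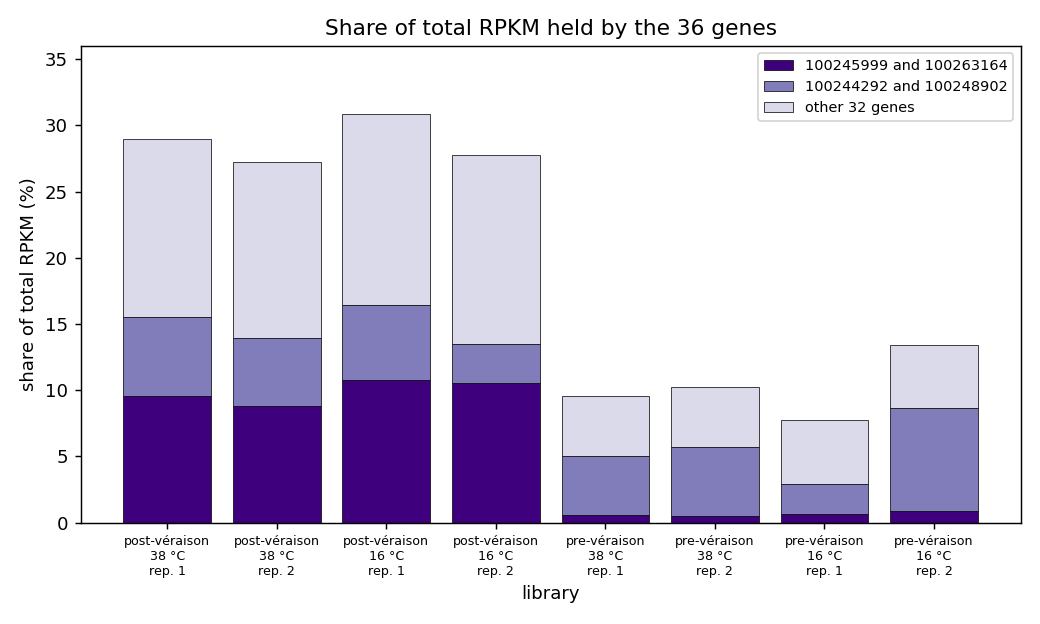
Stacked bars give the share of total RPKM (%, vertical axis) held by the 36 genes in each of the 8 libraries, split into the 2 highest genes, the genes 100244292 and 100248902, and the other 32. The post-véraison bars stand at 27.2 to 30.9% and the pre-véraison bars at 7.74 to 13.4%, and the middle segment is the one that differs most between replicates of the unheated groups.

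The genes were also short: their lengths, recovered from the RPKM steps, ran from 564 to 2630 bases with a median of 1004, against a median of 1499 bases over 16765 tested genes, and 29 of the 36 were shorter than that median. RPKM divides reads by length, so a given number of reads makes a higher RPKM in a short gene. The 2 highest genes, 100245999 and 100263164, were longer than the median of 1499 bases, at 1880 and 1724 bases. They held 11.5% and 13.3% of the reads of heated and unheated post-véraison berries, against 9.20% and 10.7% of the RPKM (means, n = 2).

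Before véraison the 36 genes had levels from 0.16 to 26178 RPKM.
In pre-véraison berries 12 genes stood at 1000 RPKM or more in all 4 libraries, 7 stood under 100 RPKM in all 4, and 17 lay between. At 38 °C 16 and at 16 °C 18 of the 36 were among the 100 highest genes by group mean before véraison, and all 36 were among the 100 highest after it at either temperature. The ratio of post- to pre-véraison means was at least 2 at 16 °C for 22 genes, at least 10 for 13 and at least 100 for 6, with a median of 4.08 at 16 °C and 2.82 at 38 °C. For 26 genes all post-véraison libraries lay above all pre-véraison libraries, for 3 all lay below, and for 7 the stages overlapped. Over the 16777 genes that reached 1 RPKM in 2 or more libraries, 14.2% lay above and 52.8% below without overlap. The rule chose on the post-véraison libraries, so these counts are a description. RPKM is relative to the read total of its library, so where some genes hold a larger share, the others stand lower. Absolute transcript amounts were not measured, and how much of the lower values comes from this was not tested.

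**Figure D2:**
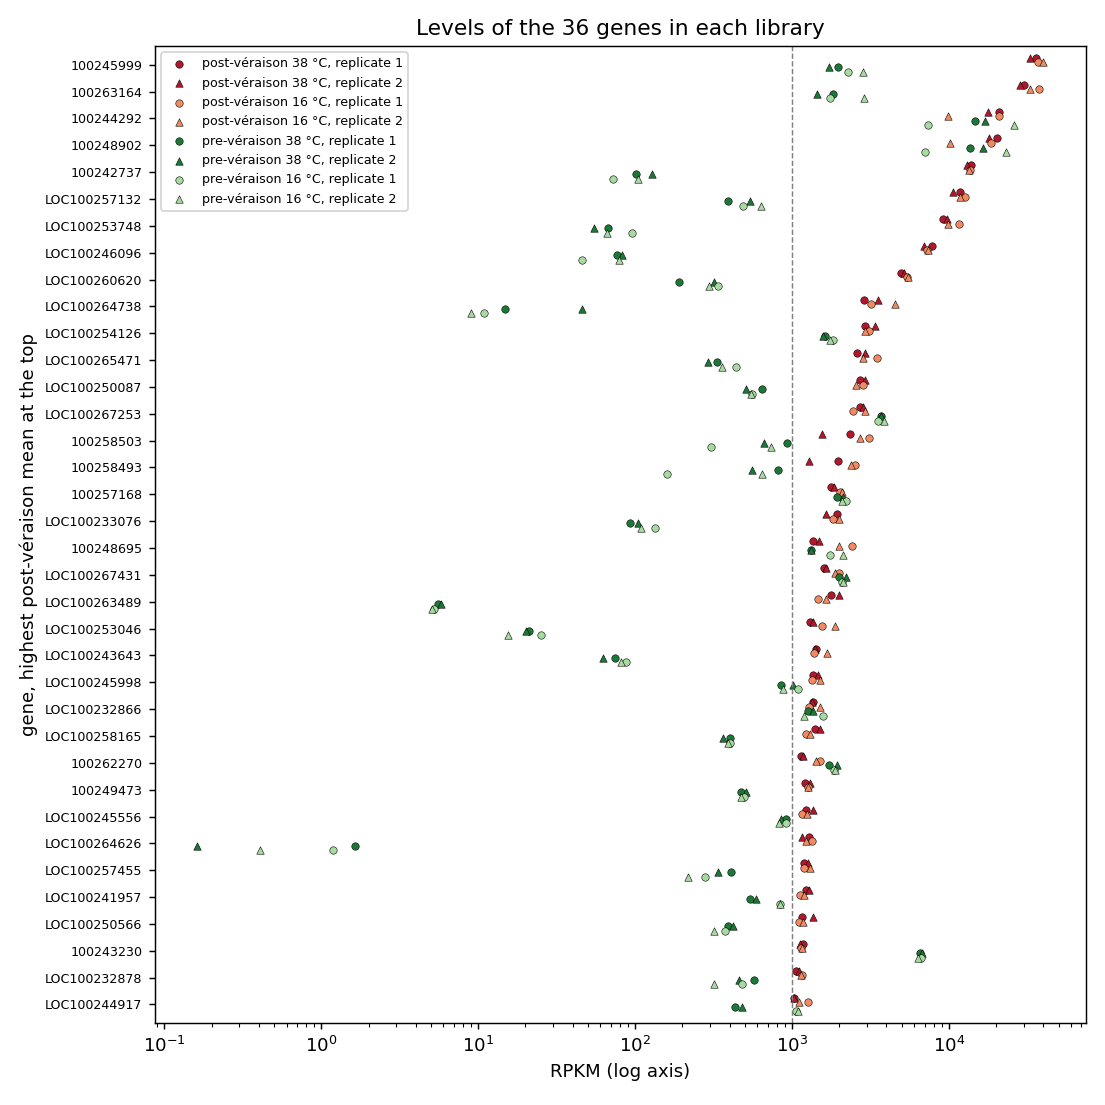
Each row is 1 of the 36 genes, and the points are its RPKM (log axis) in the 8 libraries, coloured by group, with circles for replicate 1 and triangles for replicate 2. The dashed line is the 1000 RPKM of the rule: every post-véraison point lies to its right, while pre-véraison points run from 0.16 to 26178 RPKM.

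The 7 genes under 100 RPKM before véraison held 3.74 ± 0.04% of the RPKM of heated and 4.05 ± 0.06% of unheated post-véraison berries, against 0.0415 ± 0.0009% of heated and 0.0415 ± 0.0020% of unheated pre-véraison berries (SD, n = 2). The widest contrast was that of LOC100264626, with 1285 and 1151 RPKM at 38 °C and 1338 and 1236 RPKM at 16 °C after véraison, against 1.64 and 0.16 RPKM at 38 °C and 1.18 and 0.40 RPKM at 16 °C before it. Its pre-véraison values rest on 9 and 1 reads at 38 °C and 5 and 2 reads at 16 °C. On the pooled reads the post- to pre-véraison ratio at 16 °C was 1688, with an exact Poisson 95% interval of 819 to 4198 that covers only the counting error of the pre-véraison reads.

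LOC100263489 was likewise low before véraison. It had 1783 and 1982 RPKM at 38 °C and 1461 and 1660 RPKM at 16 °C after véraison, against 5.55 and 5.76 RPKM at 38 °C and 5.25 and 5.11 RPKM at 16 °C before it. The replicates were close at both temperatures before véraison, on 30 to 48 reads each, and the ratio of group means was 333 at 38 °C and 301 at 16 °C.
LOC100253046 had 1309 and 1359 RPKM at 38 °C and 1552 and 1873 RPKM at 16 °C after véraison, against 21.0 and 20.3 RPKM at 38 °C and 24.96 and 15.5 RPKM at 16 °C before it. SWEET15 (LOC100243643) had 1419 and 1399 RPKM at 38 °C and 1379 and 1680 RPKM at 16 °C after véraison, against 74.5 and 62.3 RPKM at 38 °C and 87.1 and 80.8 RPKM at 16 °C before it. The sugar transporter gene was thus 18.2 times as high after véraison at 16 °C, and 20.6 times at 38 °C, with no overlap of libraries. LOC100253748, LOC100246096 and LOC100264738 complete this group, and their values stand with those of their chromosomal neighbours.

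Between the extremes stood 17 genes, with pre-véraison values of 72.4 to 1092 RPKM and ratios of post- to pre-véraison means of 1.102 to 152 at 16 °C. The gene 100242737 had the highest ratio of these: 13819 and 12978 RPKM at 38 °C and 13611 and 13402 RPKM at 16 °C after véraison, against 102 and 129 RPKM at 38 °C and 72.4 and 105 RPKM at 16 °C before it. It ranked 7 among all genes in unheated post-véraison berries and 1198 in unheated pre-véraison berries. LOC100233076 was at 1660 to 2004 RPKM after véraison and 92.3 to 134 RPKM before it, and LOC100265471 at 2590 to 3489 RPKM after and 292 to 442 RPKM before.
Trxh2 (LOC100250566), the thioredoxin gene, was at 1154 and 1353 RPKM at 38 °C and 1106 and 1177 RPKM at 16 °C after véraison, against 389 and 424 RPKM at 38 °C and 376 and 320 RPKM at 16 °C before it, 3.28 times as high at 16 °C. LOC100258165, 100249473, LOC100257455 and LOC100232878 had ratios of 2.63 to 5.04 at 16 °C. LOC100245998, LOC100245556, LOC100241957 and LOC100244917 had ratios of 1.102 to 1.44 at 16 °C, and in LOC100244917 the stages overlapped.

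The 12 genes already at 1000 RPKM or more before véraison held 16.8 ± 1.03% of the RPKM of heated and 17.3 ± 2.11% of unheated post-véraison berries, against 8.56 ± 0.55% of heated and 9.17 ± 3.99% of unheated pre-véraison berries (SD, n = 2). The highest of all, 100245999, had 35966 and 32686 RPKM at 38 °C and 37174 and 39940 RPKM at 16 °C after véraison, against 1972 and 1717 RPKM at 38 °C and 2270 and 2855 RPKM at 16 °C before it. The gene 100263164 had 30236 and 28484 RPKM at 38 °C and 37794 and 32867 RPKM at 16 °C after véraison, against 1830 and 1444 RPKM at 38 °C and 1749 and 2882 RPKM at 16 °C before it. Both were higher in every post-véraison library, with ratios of 15.05 and 15.3 at 16 °C, and both were among the 13 highest genes of unheated pre-véraison berries.

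The only other gene of these 12 that lay higher in every post-véraison library was LOC100254126, at 2925 and 3366 RPKM at 38 °C and 3106 and 2930 RPKM at 16 °C after véraison, against 1619 and 1567 RPKM at 38 °C and 1822 and 1744 RPKM at 16 °C before it. In 3 genes every post-véraison library lay lower than every pre-véraison library. The gene 100243230 had 1184 and 1126 RPKM at 38 °C and 1137 and 1155 RPKM at 16 °C after véraison, against 6515 and 6758 RPKM at 38 °C and 6615 and 6404 RPKM at 16 °C before it, which made it number 4 by rank in unheated pre-véraison berries. LOC100267253 was at 2435 to 2905 RPKM after and 3560 to 3851 RPKM before véraison, and 100262270 at 1148 to 1515 RPKM after and 1721 to 1944 RPKM before. The genes 100257168, 100248695, LOC100267431 and LOC100232866 overlapped between the stages, with ratios of 0.93 to 1.14 at 16 °C. High abundance in ripening berries thus took in genes with very low pre-véraison RPKM as well as genes that overlapped between stages or had lower RPKM after véraison. Since RPKM is relative to the library total, a lower RPKM is not by itself a smaller amount of transcript.

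The highest genes of unheated pre-véraison berries were also members. The gene 100244292 had 20751 and 17756 RPKM at 38 °C and 20736 and 9873 RPKM at 16 °C after véraison, against 14654 and 17011 RPKM at 38 °C and 7406 and 26178 RPKM at 16 °C before it. The gene 100248902 had 20162 and 17965 RPKM at 38 °C and 18455 and 10115 RPKM at 16 °C after véraison, against 13577 and 16598 RPKM at 38 °C and 7033 and 23187 RPKM at 16 °C before it. The stages overlapped, and the unheated replicates differed 2.10- and 1.82-fold after véraison and 3.53- and 3.30-fold before it.

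These 2 genes had nearly the same level in every library. The ratio of 100244292 to 100248902 stayed between 0.98 and 1.13 in the 8 libraries, the steadiest of the 630 pairs of members (SD of the log2 ratio 0.08), while each alone had an SD of 0.60 and 0.57 log2 units. The genes 100245999 and 100263164 had a ratio of 0.98 to 1.30, and 100258503 and 100258493 one of 1.13 to 1.91, with Pearson r of 0.998 and 0.989 on log2(RPKM + 1) over the same 8 libraries. Both correlations are descriptions, since the points of each gene share their libraries and the contrast of stages. How the authors counted reads with several matches is not given in the sources used here, so if any of these pairs are near-identical copies, the split of reads between them is uncertain; their sequences were not compared.

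Replicates agreed closely after véraison and less closely before it. The rule required 1000 RPKM in each post-véraison replicate and so left out genes with a low replicate there. The comparison genes can include those left out, so the post-véraison agreement is a description that follows in part from the rule. The higher replicate exceeded the lower by a median of 1.08-fold in heated and 1.08-fold in unheated post-véraison berries. Before véraison it did so by 1.13-fold in heated and 1.22-fold in unheated berries (1.16-fold in each with median-ratio scaling). Over all tested genes with a value in both replicates the medians were 1.12, 1.15, 1.13 and 1.14 in the same order. Genes outside the set whose group mean lay between the members' 10th and 90th percentiles had medians of 1.06 (11 genes), 1.16 (14 genes), 1.09 (2636 genes) and 1.099 (2970 genes). More than 1.5-fold apart were 2 of the 36 in heated and 2 in unheated post-véraison berries, 3 in heated and 9 in unheated pre-véraison berries.

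The largest replicate ratios lay before véraison. They were 10.2-fold for LOC100264626 in heated berries, where it had 9 and 1 reads, 4.04-fold for 100258493 in unheated berries, at 160 and 645 RPKM, and 3.53-fold for 100244292 there. After véraison the members had 6023 to 844236 reads per library, so counting error was small. Counting error alone (the 95% range of the log ratio, from the reads) was passed by the replicate difference of 34 and 32 of the 36 genes in heated and unheated post-véraison berries and of 31 and 26 genes in heated and unheated pre-véraison berries. Reads without molecular identifiers are not independent molecules, so this covers counting error only.

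**Figure D3:**
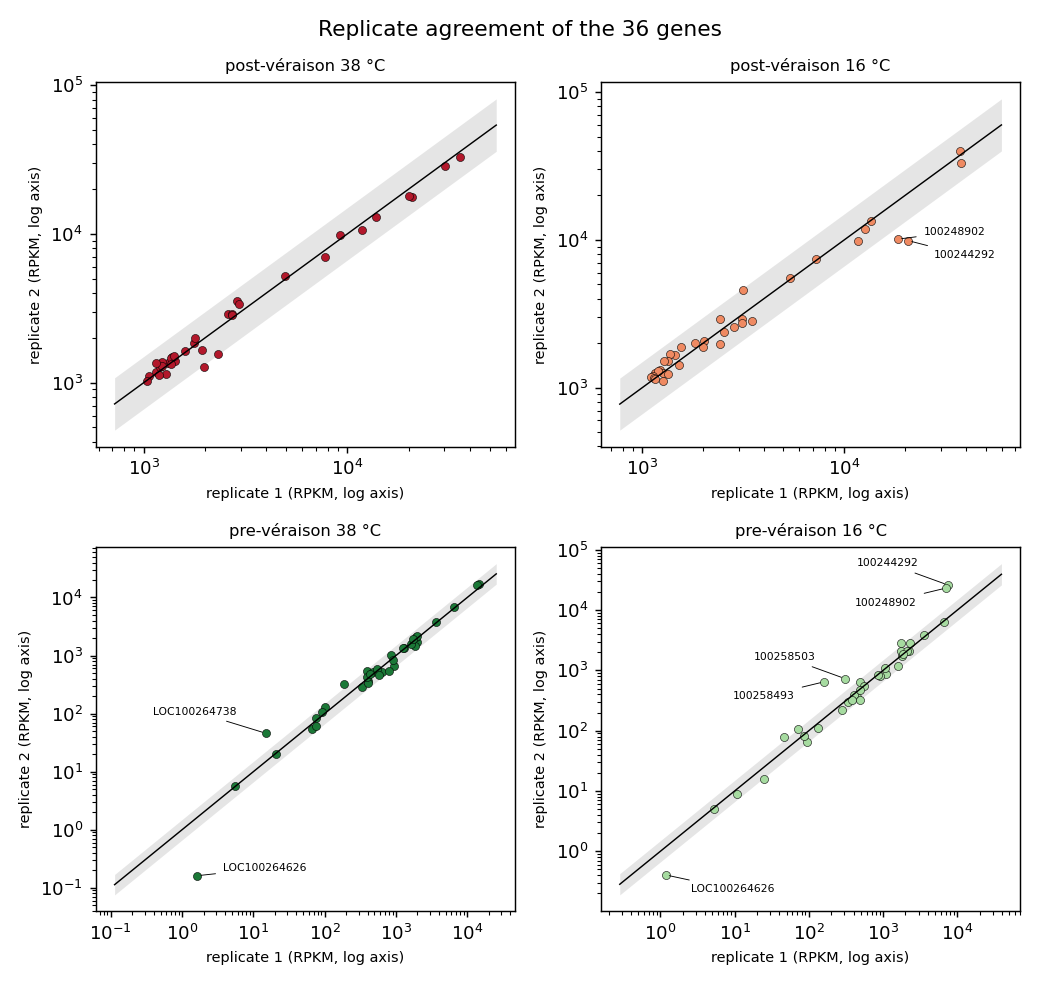
Replicate 2 is plotted against replicate 1 (RPKM, log axes) for the 36 genes in each group, with the line of equality and a grey band of 1.5-fold to either side. Of the 36 points, 2 in each post-véraison panel lie outside the band, against 3 in the heated and 9 in the unheated pre-véraison panel. Of all tested genes, 12.2 and 14.2% were that far apart in heated and unheated post-véraison berries, and 10.8 and 11.4% in pre-véraison berries. The genes farthest apart are labelled.

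Differences between replicates of unheated pre-véraison berries bore on the share as well. The genes 100244292 and 100248902 together held 5.93% and 5.15% of the RPKM of the heated and 5.65% and 2.90% of the unheated post-véraison libraries, against 4.43% and 5.21% of the heated and 2.30% and 7.74% of the unheated pre-véraison libraries. Without them the other 34 genes held 22.5 ± 0.69% in heated and 25.1 ± 0.26% in unheated post-véraison berries, and 5.08 ± 0.05% in heated and 5.55 ± 0.16% in unheated pre-véraison berries (SD, n = 2). The spread of the pre-véraison share at 16 °C, 10.6 ± 4.01% with them (SD, n = 2), thus lay in these 2 genes.

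Position on the chromosome was not used by the rule, and several members were neighbours in the gene order of the Pinot Noir reference assembly. LOC100264738 lies directly beside MRIP1, a ripening-induced gene that was left out because it has a symbol. LOC100246096 has 2 genes between it and the thaumatin-like protein gene TL3, and 3 between it and TL1. LOC100260620, the long noncoding RNA, LOC100257132 and LOC100253748 lie within 1 run of 6 genes, and LOC100250087 and LOC100267253 are adjacent. The windows of 7 genes to either side were drawn after the values had been seen, and are a description.

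Next to MRIP1, 10 of the 12 listed genes within 7 places of LOC100264738 (itself and MRIP1 included) were at least 10-fold higher after véraison at 16 °C with no overlap of libraries, against 2.54% of the 18647 listed genes in the table. LOC100264738 had 2865 and 3526 RPKM at 38 °C and 3169 and 4555 RPKM at 16 °C after véraison, against 14.9 and 46.0 RPKM at 38 °C and 10.8 and 8.93 RPKM at 16 °C before it. Of its pre-véraison libraries, replicate 2 at 38 °C stood highest. MRIP1 was at 14049 to 15867 RPKM after véraison and 196 to 382 RPKM before it. LOC100244140, LOC100259740 and LOC100249526, which lie further along and missed the level of the rule in 1 or 2 libraries, had 833 to 1538 RPKM after véraison and 4.19 to 37.7 RPKM before it. LOC100247822 and LOC100242457, on the other side of MRIP1, had 277 to 798 RPKM after and 4.77 to 19.1 RPKM before. Further out on that side, LOC100242646 and LOC100254634 had nearly equal values, at 63.3 to 88.3 and 63.8 to 89.4 RPKM after véraison. LOC100264738, LOC100244140, LOC100259740 and LOC100249526 ran nearly in parallel over the libraries. Whether genes of this run share reads was not tested, so the 10 may not count as separate genes.

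Around LOC100246096, 5 of 14 listed genes were at least 10-fold higher after véraison in the same way. That count includes LOC100246096 itself and TL3, which passed the level of the rule. LOC100246096 had 7791 and 6969 RPKM at 38 °C and 7242 and 7376 RPKM at 16 °C after véraison, against 76.2 and 82.8 RPKM at 38 °C and 45.6 and 78.7 RPKM at 16 °C before it. Its neighbours LOC100265026 and TL3 were at 664 to 758 and 11907 to 13205 RPKM after véraison, and at 3.63 to 4.41 and 134 to 199 RPKM before it. TL1, which also passed the level of the rule, was at 8698 to 9441 RPKM after véraison and 813 to 1212 RPKM before it. It was 7.72 times as high after véraison at 16 °C and so is not among the 5. Whether neighbours of like sequence share reads was not tested.

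Around LOC100257132, 4 of 12 listed genes were at least 10-fold higher after véraison, 3 of them members; the other, LOC100248652, had 12.3 to 28.7 RPKM after véraison and is listed at 0 in all 4 libraries before it. LOC100257132 had 11811 and 10706 RPKM at 38 °C and 12730 and 11844 RPKM at 16 °C after véraison, against 390 and 539 RPKM at 38 °C and 490 and 638 RPKM at 16 °C before it. LOC100253748 had 9168 and 9777 RPKM at 38 °C and 11682 and 9856 RPKM at 16 °C after véraison, against 66.7 and 54.7 RPKM at 38 °C and 94.95 and 65.9 RPKM at 16 °C before it. Both were among the 11 highest genes of unheated post-véraison berries. LOC100260620, the noncoding RNA, had 4959 and 5207 RPKM at 38 °C and 5403 and 5487 RPKM at 16 °C after véraison, against 190 and 321 RPKM at 38 °C and 339 and 296 RPKM at 16 °C before it. The next listed genes beyond LOC100260620, LOC100243513 and LOC100255548, were at 11.2 to 18.0 RPKM after véraison.

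Neighbours did not always share a pattern. The adjacent genes LOC100250087 and LOC100267253 had like levels after véraison and unlike levels before it. LOC100250087 was at 2712 and 2914 RPKM at 38 °C and 2837 and 2569 RPKM at 16 °C after véraison, against 644 and 511 RPKM at 38 °C and 560 and 550 RPKM at 16 °C before it, while LOC100267253 was the one already given that was lower after véraison. Of the 11 listed genes within 7 places of LOC100250087, 0 were at least 10-fold higher.

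**Figure D4:**
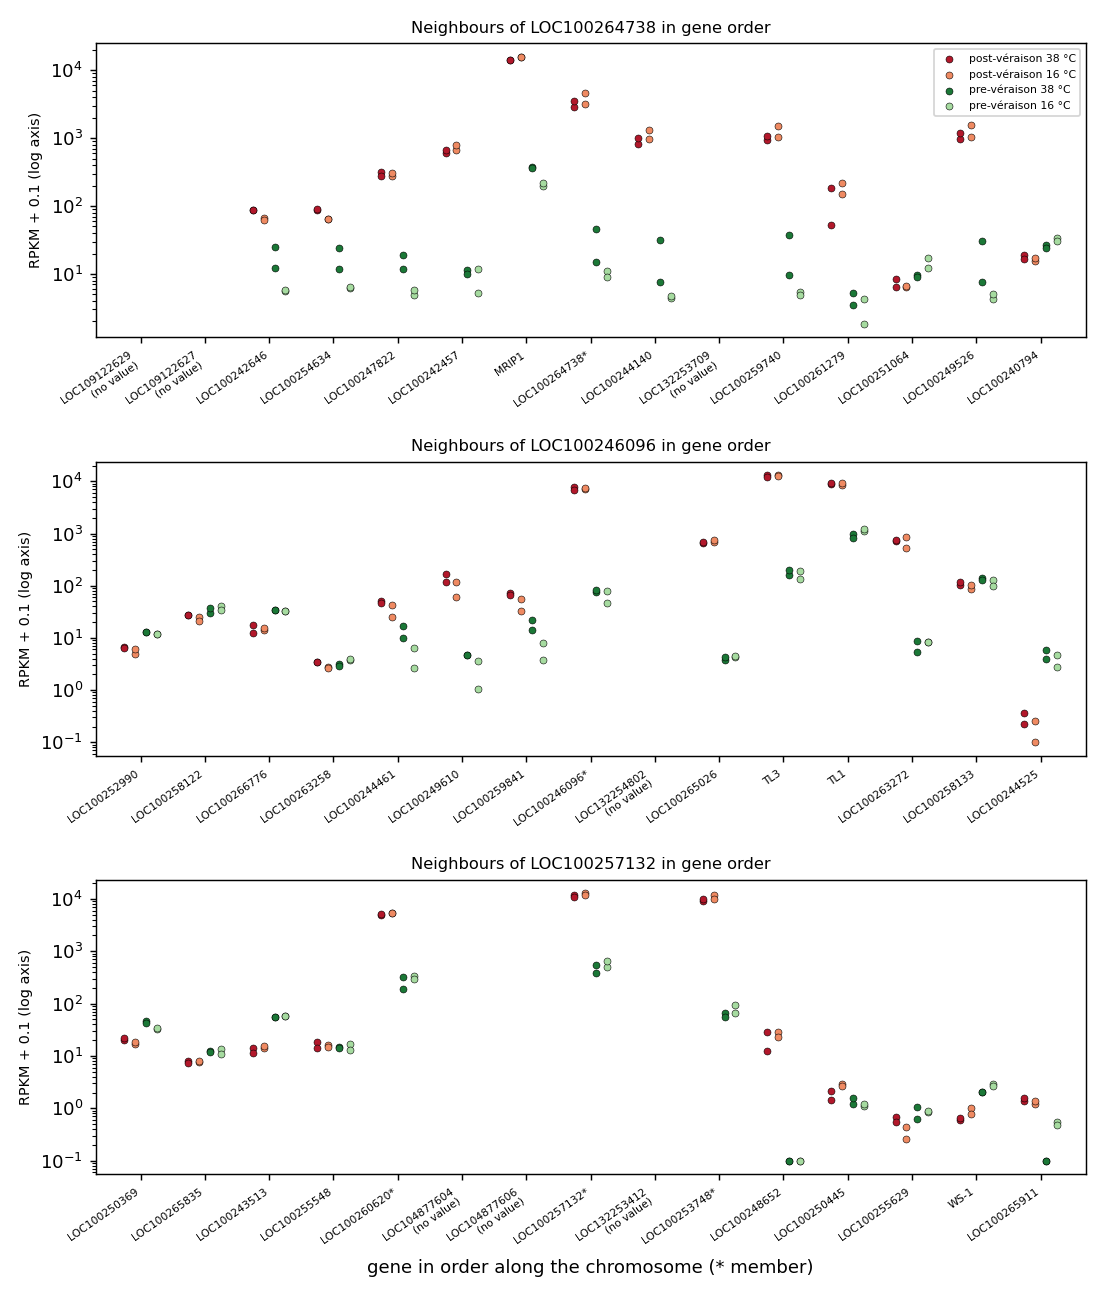
RPKM plus 0.1 (log axis) of each library is plotted for the genes within 7 places of LOC100264738, LOC100246096 and LOC100257132, in gene order, coloured by group; a star marks members and genes without a value are named only. In the upper panel 10 of 12 listed genes, in the middle panel 5 of 14 and in the lower panel 4 of 12 were at least 10-fold higher after véraison at 16 °C without overlap. These counts include the central gene of each panel.

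The response to 1 hour at 38 °C before véraison was the comparison that the rule did not use. The spread in the fit was estimated from all 8 libraries, however, the post-véraison libraries of the rule included. All 36 genes passed the filter on low values, which the rule made certain. On log2(RPKM + 1), limma called 5 of the 36 at an adjusted p under 0.05 (13.9%), 2 higher and 3 lower at 38 °C. Of all 16777 genes tested, 20.4% were called, 7.96% higher and 12.4% lower. Fitted on the 4 pre-véraison libraries alone, 4 of the 36 were called (11.1%), 2 higher and 2 lower, against 19.4% of all genes. The call lost there was that of 100248695 (limma adjusted p = 0.062). The median difference of the members was -0.01 and that of all tested genes -0.09 log2 units. Of the 31 members not called, 21 lay within 0.3 log2 units of 0, which does not show that heat left all of them unmoved. Among these, 100244292 and 100248902 stood at 0.18 ± 0.55 and 0.23 ± 0.51 (SE) log2 units. LOC100264626, also among them, had only 1 to 9 reads per library. The share called among these abundant genes was below the background here, but without replicate 2 of the unheated berries it was above it, with 7 of 36 (19.4%) called against 15.4% of all genes. Fits that leave out a replicate keep 1 library in that group, which is assumed to vary like the other groups, post-véraison libraries included; a call lost or gained in them does not by itself show a smaller or larger difference.

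The clearest fall was that of LOC100244917, at 431 and 480 RPKM at 38 °C, against 1063 and 1090 RPKM at 16 °C before véraison. The groups did not overlap, and the difference was -1.24 ± 0.13 (SE) log2 units (limma adjusted p = 6.8e-05). It was called under all 16 alternatives. After véraison LOC100244917 had 1036 and 1028 RPKM at 38 °C, against 1261 and 1111 RPKM at 16 °C, and its values there are a description, since the rule used them.

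LOC100241957 had 542 and 592 RPKM at 38 °C, against 843 and 837 RPKM at 16 °C before véraison, a fall of 0.57 ± 0.12 (SE) log2 units (limma adjusted p = 0.0076; 6.2e-05 to 0.063 over the alternatives, of which the fit without replicate 1 of the heated berries alone, at -0.50 log2 units, lost the call). The gene 100248695 had 1316 and 1326 RPKM at 38 °C, against 1736 and 2116 RPKM at 16 °C. Its fall of 0.54 ± 0.16 log2 units was near the threshold (limma adjusted p = 0.043) and was called under 7 of 16 alternatives, with adjusted p from 0.0012 to 0.17. When either heated library was left out the difference was nearly the same, -0.53 and -0.54 log2 units, but the adjusted p was 0.15 without replicate 1 and 0.16 without replicate 2. Without replicate 2 of the unheated berries the difference was -0.39 (limma adjusted p = 0.17).

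LOC100264738, the neighbour of MRIP1, rose by 1.33 ± 0.39 (SE) log2 units at 38 °C (limma adjusted p = 0.036). The rise lay mainly in 1 library: replicate 2 of the heated berries had 46.0 RPKM and replicate 1 had 14.9 RPKM, against 10.8 and 8.93 RPKM at 16 °C. Without replicate 2 of the heated berries the difference was 0.55 log2 units (limma adjusted p = 0.18), while without replicate 1 or 2 of the unheated berries it stayed at 1.46 and 1.21 log2 units (limma adjusted p = 0.091 and 0.14). Over the alternatives, 10 of 16 of which called it, the adjusted p ran from 8.8e-04 to 0.18. In replicate 2 of the heated berries LOC100244140, LOC100259740 and LOC100249526 were at 31.7, 37.7 and 30.0 RPKM, against 7.46, 9.70 and 7.63 RPKM in replicate 1 of the heated berries. Not all neighbours stood higher in replicate 2. MRIP1 itself and LOC100242457 were at 363 and 9.72 RPKM there, against 382 and 11.5 RPKM in replicate 1 of the heated berries.

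LOC100257455 had 406 and 336 RPKM at 38 °C, against 278 and 217 RPKM at 16 °C before véraison, a rise of 0.59 ± 0.15 (SE) log2 units (limma adjusted p = 0.019). The call was lost without replicate 1 of the heated berries (0.45 log2 units, limma adjusted p = 0.14) and without replicate 2 of the unheated berries (0.41 log2 units, limma adjusted p = 0.11). It held under 13 of 16 alternatives, with adjusted p from 0.0014 to 0.14. Without replicate 1 of the heated berries 2 of 36 members (5.56%) were called, against 14.0% of all genes. In the fit without replicate 2 of the unheated berries, which sets both heated libraries against a single unheated one, 100242737, LOC100253748, LOC100246096, 100258503 and 100258493 also passed the threshold, with differences of 0.66, -0.64, 0.79, 1.36 and 2.06 log2 units. They are not counted as calls here.

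Among members not called, 100258493 had 812 and 553 RPKM at 38 °C, against 160 and 645 RPKM at 16 °C, and 100258503 had 926 and 660 RPKM at 38 °C, against 305 and 732 RPKM at 16 °C. In both the groups overlapped through replicate 2 of the unheated berries (differences of 1.06 ± 0.50 and 0.73 ± 0.35 log2 units, limma adjusted p = 0.17 and 0.18). The highest pair, 100245999 and 100263164, stood at -0.47 ± 0.24 and -0.47 ± 0.28 log2 units (limma adjusted p = 0.22 and 0.29; both were called lower by limma voom on recovered reads, adjusted p = 0.0029 and 0.042). SWEET15 was at -0.30 ± 0.13 and Trxh2 at 0.23 ± 0.13 log2 units (limma adjusted p = 0.14 and 0.27), and the noncoding RNA LOC100260620 at -0.36 ± 0.21 (limma adjusted p = 0.28; 0.032 without replicate 2 of the heated berries).

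**Figure D5:**
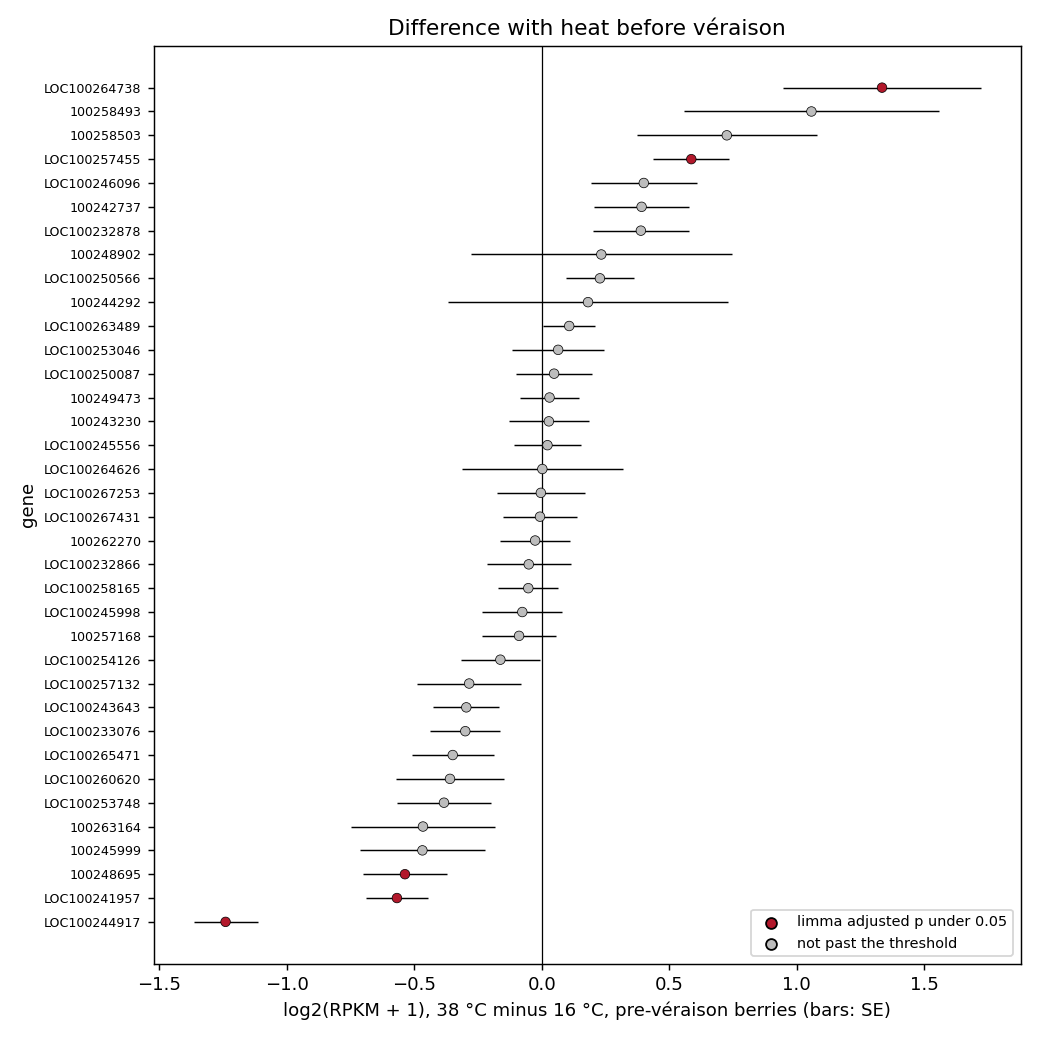
Points give the difference in log2(RPKM + 1) between 38 °C and 16 °C in pre-véraison berries for the 36 genes, with bars of 1 SE, sorted by size, and red points mark the 5 past an adjusted p of 0.05. LOC100244917 lies lowest at -1.24 and LOC100264738 highest at 1.33, and 21 of the grey points lie within 0.3 of 0.

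After véraison the differences between 38 °C and 16 °C ran from -0.63 to 0.48 log2 units over the 36 genes, with a median of -0.09 against 0.02 over all tested genes, and 29 lay within 0.3 of 0. The heated libraries lay above the unheated ones without overlap in 3 members and below in 14, where 23.9% and 16.4% of all tested genes did so. The rule required 1000 RPKM in each of these libraries, so none of this was tested. The widest values were those of 100258493, at 1968 and 1276 RPKM at 38 °C, against 2533 and 2384 RPKM at 16 °C, and of 100248902, which is given above with its replicates. The gene 100248695 had 1372 and 1494 RPKM at 38 °C, against 2418 and 1980 RPKM at 16 °C, and lay lower at 38 °C without overlap at both stages.

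At the edge of the rule, the lowest post-véraison library was at 1106 RPKM for LOC100250566, 1056 RPKM for LOC100232878 and 1028 RPKM for LOC100244917, just inside. It was at 976 RPKM for LOC100249526, 947 RPKM for LOC100245649 and 945 RPKM for LOC100247119, just outside.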

How the data were processed

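Messenger RNA of deseeded berries was sequenced single-end in 8 libraries, 2 for each of 4 groups; per the submitters' processing notes the tools were Bowtie 0.12.7 and TopHat 1.2.0, with no role or order given. The deposited values are RPKM, made by the authors, 1 file per library without pooling. The genome build, the annotation, the counting tool, strandedness and the treatment of multiply mapped reads: none is given in the sources used here.

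Library denominators, gene lengths and whole reads were recovered from the RPKM steps for 20834 of 20845 genes above 0 in at least 3 libraries (within 1e-04 reads plus 1e-09 of the reads), and checked on simulated data. A gene's recovered reads and length may both be too small by a common divisor. The 16777 genes that reached 1 RPKM in 2 or more libraries were fitted as log2(RPKM + 1), so low genes' fold changes are understated, with limma 3.58.1 in R 4.3.3 (mean per group, intensity trend, two-sided, Benjamini-Hochberg over all genes). Replicates are biological per the series design. Figures were drawn with matplotlib 3.10.9, from tables made with pandas 2.3.3 under Python 3.11.15.

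Members and lists were chosen with earlier results of these data known. Since all post-véraison libraries chose the members, only heat before véraison was tested. Named were the 12 highest genes, genes called with heat, the 4 highest and lowest stage ratios, the 3 largest replicate ratios and the 3 genes on each side of the threshold; other members and neighbours were named after their values were seen. Names came from the gene table of assembly ASM3070453v1, matched by gene number for 18647 of 25771 genes. No sequence is printed here.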

Additional observations from a re-analysis of the deposited data

Results flagged for a closer look

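In LOC100241957 both heated libraries lay below both unheated libraries before véraison (-0.57 log2 units) and above them after véraison (0.11 log2 units). The post-véraison difference was small, where heated and unheated replicates lay 1.05- and 1.06-fold apart. Such separation is common: of all tested genes, 38.1% lay lower at 38 °C without overlap before véraison and 23.9% higher after it. The difference between the stages was not tested, since the rule used the post-véraison libraries.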

How the results depend on the processing

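The count of members called with heat before véraison (5) was 3 with a pseudocount of 0.1 (8.33%, against 17.1% of all genes), 2 with no filter on low values (5.56% against 13.7%), 2 at an adjusted p under 0.01 (5.56% against 11.2%) and 8 with limma voom on recovered reads (22.2% against 22.6%; chosen after seeing the data). Leaving out 1 replicate of these berries gave 2 to 7, with shares of 5.56, 11.1, 13.9 and 19.4%, against 14.0, 11.8, 13.9 and 15.4% of all genes, without heated replicates 1 and 2 and unheated replicates 1 and 2 in that order. The 3417 genes called in all became 1965 to 2563 leaving out 1 replicate, lowest without replicate 2 of the heated berries. With median-ratio scaling 4 members were called (2 higher, 2 lower; 11.1%, against 17.9% of all genes) and 1488 genes were higher and 1515 lower, against 1335 and 2082. With the replicate number as a block 4 members (2 higher, 2 lower; 11.1%) and 3157 genes (18.8%) were called, the call lost being that of 100248695; the numbers did not pair the libraries (correlation of replicate differences 0.03 between the pre-véraison groups). Over 16 alternatives for each member, 546 values kept their side of the threshold, 19 lost a call and 11 gained one; no call changed sign, and 21 members were never called.

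The rule gave 84 genes at 500 RPKM, 14 at 2000 RPKM, and 36 to 38 leaving out 1 replicate. The share of RPKM (28.1 and 29.3% in heated and unheated post-véraison berries, 9.90 and 10.6% in heated and unheated pre-véraison berries) became 24.3 and 25.2% after véraison with the highest gene left out of the set and of the total. As reads it became 24.5, 26.0 and 7.56% in heated and unheated post-véraison and heated pre-véraison berries. Without 100244292 and 100248902 (chosen after seeing the data) it became 22.5, 25.1, 5.08 and 5.55% in the 4 groups in that order. With median-ratio scaling the median replicate ratio before véraison went from 1.22 to 1.16 in unheated and from 1.13 to 1.16 in heated berries. After véraison it went from 1.085 to 1.092 in unheated berries and stayed at 1.075 in heated berries. Depth limits LOC100264626 before véraison, with 1 to 9 reads per library.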
